A study of Homo sapiens with 18 samples.

Results

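USB1 mutant hematopoietic progenitors were compared with WT progenitors at day 16 (D16) of the differentiation of human embryonic stem cells (hESCs). The comparison used 6 of the 18 libraries of the series, 3 USB1 mutant and 3 WT, taken by the genotype and time point in their labels. The USB1 mutant cells were made from H1, an established hESC line, with CRISPR/Cas9 and a single-stranded DNA donor that left the c.531delA deletion in USB1, and colonies were picked by hand. The WT cells were H1 cells without the deletion, titled Control in the labels. Both genotypes passed through the same serum-free differentiation, and the study describes the cells of this day as CD34+/CD45+ progenitors. The number of edited colonies behind the 3 mutant libraries is not given in the sources used here, nor is it stated that the libraries of a genotype came from separate cultures. The p-values therefore measure the spread between these libraries, which may be technical.

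USB1 is an exonuclease that trims RNA from the 3′ end. Its best known substrate is U6, the small nuclear RNA at the catalytic centre of the spliceosome, and its loss causes poikiloderma with neutropenia, an inherited marrow failure with few neutrophils. Early blood progenitors can give granulocytes, monocytes, mast cells, red cells and megakaryocytes. Granulocyte precursors fill azurophil granules first and specific granules later under C/EBP transcription factors, whereas the red cell and megakaryocyte programmes rest on GATA1 and TAL1.

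The edited site is shown because it defines the genotype that separates the groups. It lies in exon 5 of the 7 exons of USB1, on the plus strand of chromosome 16 (GRCh38). The study's methods print 2 target sequences followed by NGG under the name of donor oligos, and they were read here as guide sites because of that motif. The first site spans chr16:58017341-58017360 and coding bases 511 to 530, and the second spans chr16:58017342-58017361 and coding bases 512 to 531. The base deleted in c.531delA is at position 58017361, the last base of the second site. Capitals mark the PAM, the motif that Cas9 needs beside its target.
guide 1: attgggcttgaggtcacttcAGG
guide 2: ttgggcttgaggtcacttcaGGG

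USB1 RNA was at 53.7, 45.2 and 55.4 CPM (counts scaled to library size) in mutant libraries 1, 2 and 3, against 58.8, 48.8 and 57.3 CPM in WT libraries 1, 2 and 3. The groups overlapped, and the log2 fold change (mutant over WT) came to -0.09 ± 0.14 (SE), with an adjusted p of 0.668 by edgeR's quasi-likelihood test with Benjamini-Hochberg adjustment over all genes. A count per gene cannot show the deletion of a single base, so this level does not check the labels. USB1 also overlaps ZNF319 on the other strand, and use of strand in the counting is not given in the sources used here.

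The mutant libraries held 12258218 to 14056077 counts and the WT libraries 9043538 to 17536723 counts. The 20 most abundant genes took 8.13 to 9.28% of counts in mutant libraries and 11.9 to 13.6% in WT libraries. Log CPM values correlated at 0.9855 to 0.9878 within mutant, 0.9778 to 0.9881 within WT and 0.9451 to 0.9753 between genotypes, a description across genes, which are not independent replicates. Both genotypes carried the blood identity of the label: 6 identity markers, among them PTPRC (CD45) and CD34, both on 1q, the long arm of chromosome 1, and SPN (CD43), summed to 858 to 992 TPM, the unit scaled for transcript length, in mutant and 1014 to 1412 TPM in WT libraries. CD34 itself was at 125, 144 and 151 CPM in mutant libraries against 73.8, 111 and 164 CPM in WT libraries, which overlapped (log2 fold change 0.27, adjusted p = 0.444), but without WT library 3 it was called higher (0.59, adjusted p = 0.0269). Markers of other types were also present. The 4 eosinophil markers summed to 9431 to 14568 TPM in mutant and 40910 to 77711 TPM in WT, the 5 neutrophil markers to 1616 to 2526 TPM in mutant and 2587 to 6063 TPM in WT, and the 5 mast cell markers to 561 to 781 TPM in mutant and 489 to 783 TPM in WT. The 5 monocyte and macrophage markers summed to 148 to 219 TPM in mutant and 53.6 to 119 TPM in WT. The 5 erythroid markers summed to 2418 to 4151 TPM in mutant and 1004 to 1871 TPM in WT, the 4 megakaryocyte markers to 743 to 758 TPM in mutant and 394 to 463 TPM in WT, and the 4 endothelial markers to 150 to 170 TPM in mutant and 108 to 134 TPM in WT. Stromal, lymphoid and pluripotency markers each summed to under 20 TPM in every library, with MS4A1 listed at 0 in all 6 libraries. In bulk RNA, fewer cells of a type and less RNA per cell cannot be told apart, and the part of these mixtures in the results was not tested.

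Of 14528 genes tested at D16, 4135 were called at an adjusted p under 0.1 (28.5%), 1909 higher (13.1%) and 2226 lower (15.3%) in mutant progenitors. Calls that also passed a 2-fold change numbered 1326 (9.13%), with 589 higher (4.05%) and 737 lower (5.07%). The genotypes did not overlap for 5539 genes (38.1%), with all mutant libraries above all WT libraries in 2702 (18.6%) and below them in 2837 (19.5%). The median log2 fold change over all genes was 0.01. The count of calls moved with single libraries: it was 2520, 2450 and 5778 without WT libraries 1, 2 and 3, 2877, 2991 and 2759 without mutant libraries 1, 2 and 3, and 5407 with the replicate number as a block. For a gene list whose shares of risers and fallers lie near those over all genes, the counts given are a description only. The scatter of fold change against abundance has called genes on both sides of 0, with the eosinophil granule genes at its abundant end below 0. By mean TPM, PRG2, which encodes the major basic protein of eosinophil granules, was the most abundant gene in WT (4653 ± 948 TPM in mutant and 25780 ± 8389 TPM in WT, SD, n = 3 each). In WT library 3 the rRNA pseudogene RNA5-8SP6 was above it, at 19947 TPM against 17164 TPM for PRG2.

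**Figure D1:**
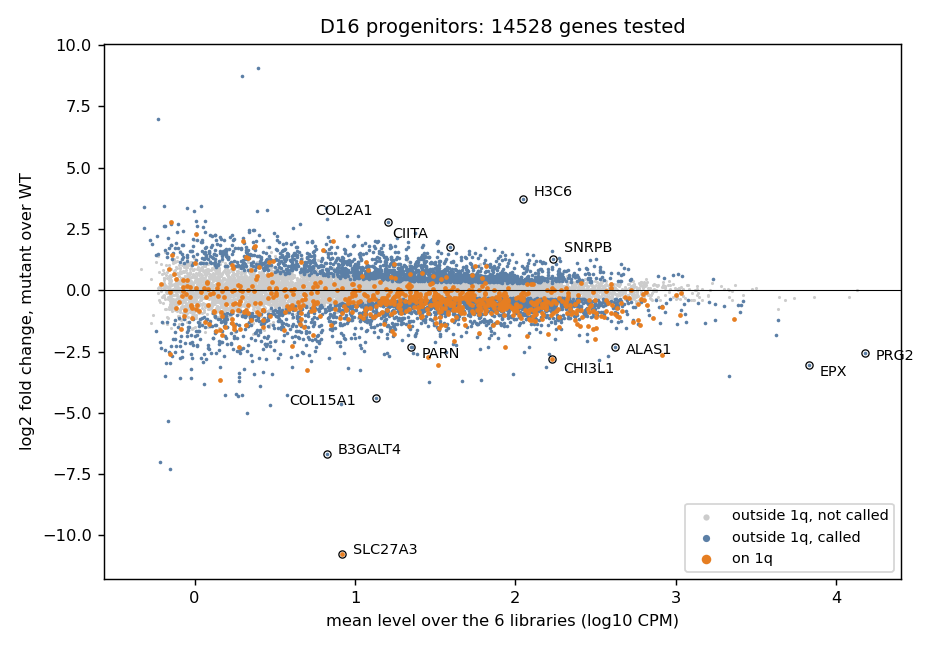
Log2 fold change of mutant over WT (vertical) against mean CPM (horizontal, log10 scale) for the 14528 genes tested at D16. Blue points are genes outside the long arm of chromosome 1 that were called, grey points those that were not, and orange points lie on that arm, where the median was -0.49. PRG2 and EPX sit at the high-abundance end below 0, and H3C6 stands at 3.72.

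The long arm of chromosome 1 (1q) was low in the mutant as a block, so its genes are marked where their results are described. Of 686 genes tested on 1q, 352 were called lower (51.3%) and 26 higher (3.79%). The median log2 fold change was -0.49 on 1q, a fold of 0.711, and 570 of the 686 genes lay below 0. The arm took 4.76 ± 0.0655% of counts in mutant libraries and 6.56 ± 0.148% in WT libraries (SD, n = 3 each). The 2 groups did not overlap, with a two-sided exact permutation p of 0.1, the smallest that 3 against 3 libraries allow. The arm was singled out on earlier results of these data, so this p is a description and not independent evidence. Among 247 windows of 10 Mb with at least 20 tested genes, 11 had a median under -0.3 and all 11 were on 1q. Outside 1q the lowest window median was -0.26. Outside 1q, 3757 of 13842 genes were called (27.1%), 1883 higher (13.6%) and 1874 lower (13.5%), with a median of 0.03. That count was 2205 without WT library 1, 2152 without WT library 2 and 2450 without mutant library 3.

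A shorter segment moved the other way. Among the 247 windows 3 had a median above 0.3, the highest at the start of chromosome 20. The others began at base 20000001 of chromosome 6 (0.36, 40 of 99 genes called higher) and base 130000001 of chromosome 2 (0.31, 11 of 39). In the first 10 Mb of chromosome 20 the median over 72 tested genes was 0.60, a fold of 1.517, and 58 of the 72 lay above 0. Of these genes, 38 were called higher and 7 lower, and in 43 every mutant library was above every WT library. Over all genes these shares were 13.1%, 15.3% and 18.6%. By megabase from the chromosome end, the medians were 0.96 over 13 genes, 0.74 over 12, 0.92 over 9 and 0.44 over 18, then -0.14 over 5 and 0.15 over 8. The segment took 0.412 ± 0.0115% of counts in mutant libraries and 0.337 ± 0.00825% in WT libraries (SD, n = 3 each; two-sided exact permutation p = 0.1, the smallest possible). The segment was singled out after its values were seen. With it and 1q both left out, 3578 genes were called. The segment was also above WT on the other days, at 0.17 to 0.22 in the mutant libraries at D0 and 0.20 to 0.25 at D30, against 0.60 to 0.64 at D16. On 1q the mutant libraries were at -0.20 to -0.16 at D0, -0.47 to -0.45 at D16 and -0.35 to -0.27 at D30.

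**Figure D2:**
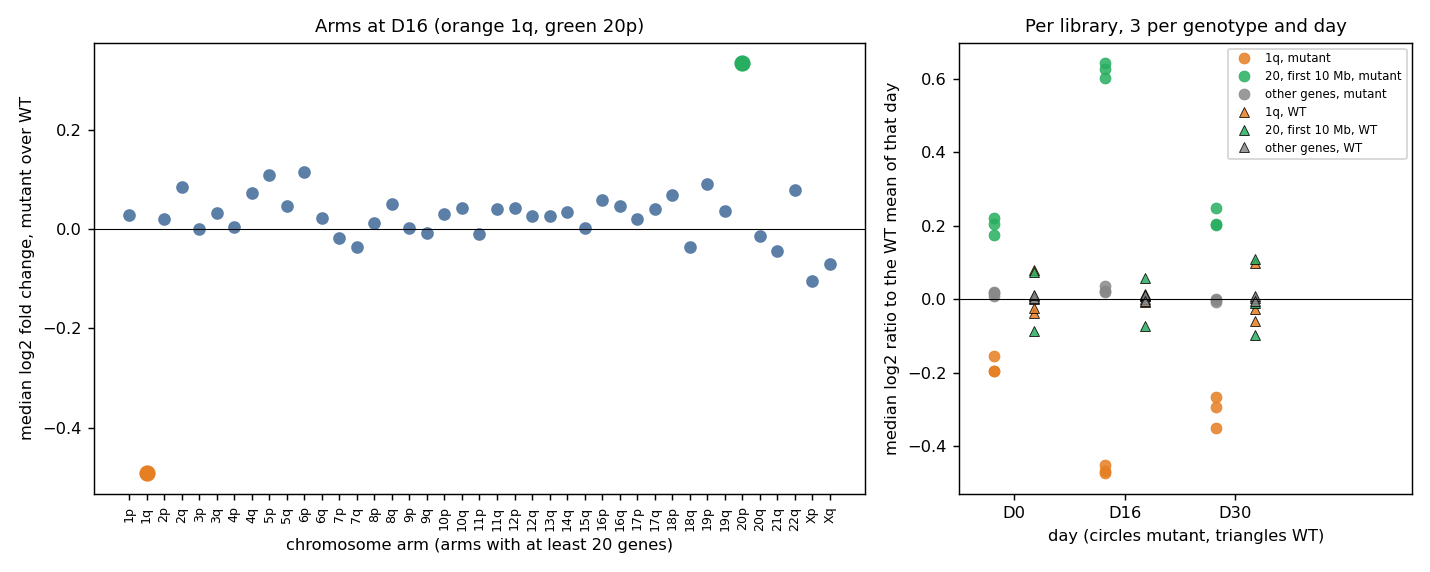
Left, the median log2 fold change of mutant over WT at D16 for each chromosome arm, with 1q in orange and 20p in green. Right, the median per library relative to the WT mean of that day at D0, D16 and D30, for 1q genes, for the first 10 Mb of chromosome 20 and for all other genes, with circles for mutant and triangles for WT libraries. Every mutant library lies below WT on 1q and above WT on the chromosome 20 segment, and the gap was widest at D16 (-0.47 to -0.45 and 0.60 to 0.64).

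Granulocyte genes were lower in mutant progenitors. All 13 eosinophil genes tested fell, with a median log2 fold change of -1.96 against 0.01 over all genes, and so did 16 of 19 specific and gelatinase granule genes (median -1.11) and 10 of 14 azurophil granule genes (median -0.97). RNASE2, a ribonuclease of eosinophil granules, and MS4A3, a membrane protein of granulocyte precursors, are the examples whose promoters are printed here, because both genes fell and both promoters hold the core letters bound by C/EBP factors. They are RefSeq sequences on GRCh38.p14 that run from 250 bases before to 50 after the start, and capitals mark TTGCNNAA on either strand, with no overlap between matches. RNASE2 is at chr14:20955237-20955536 and MS4A3 at chr11:60056415-60056714, both on the plus strand.
RNASE2: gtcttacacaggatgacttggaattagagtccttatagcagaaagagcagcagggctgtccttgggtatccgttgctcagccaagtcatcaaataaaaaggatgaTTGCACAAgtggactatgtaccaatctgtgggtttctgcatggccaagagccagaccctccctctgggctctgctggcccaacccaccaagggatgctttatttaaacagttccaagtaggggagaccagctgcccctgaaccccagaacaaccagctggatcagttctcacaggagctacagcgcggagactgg
MS4A3: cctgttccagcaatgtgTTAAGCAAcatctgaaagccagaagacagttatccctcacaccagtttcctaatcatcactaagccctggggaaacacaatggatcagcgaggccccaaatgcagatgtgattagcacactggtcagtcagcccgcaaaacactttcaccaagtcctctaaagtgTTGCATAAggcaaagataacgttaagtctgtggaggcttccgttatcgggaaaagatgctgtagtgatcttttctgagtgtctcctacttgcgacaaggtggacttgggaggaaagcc
The same letters were found in 4 of 10 eosinophil, 3 of 9 azurophil and 4 of 17 specific granule promoters of that length. They were also in 2 of 16 mast cell, 2 of 22 megakaryocyte and 1 of 15 red cell membrane promoters, against 10.6% of all 27305. These counts cover whole lists, whether or not a member fell. The GATA letters AGATAA were found in 6 of 15 red cell membrane, 6 of 16 mast cell, 3 of 22 megakaryocyte, 2 of 9 azurophil, 2 of 17 specific granule and 1 of 10 eosinophil promoters, against 10.5% of all. The MS4A3 promoter shown holds 1 match to AGATAA, printed in lower case, 55 bases before the start. A match describes the letters only.

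RNASE2 was at 93.9, 117 and 94.0 CPM in mutant libraries, against 594, 872 and 505 CPM in WT libraries. MS4A3 was at 175, 153 and 134 CPM in mutant libraries, against 294, 361 and 375 CPM in WT libraries. In both genes every mutant library was below every WT library, and the log2 fold changes were -2.69 ± 0.21 and -1.16 ± 0.15 (SE). ALOX15, a lipoxygenase of eosinophils, was at 5.88, 12.6 and 8.68 CPM in mutant against 134, 129 and 77.2 CPM in WT, and HRH4, a histamine receptor found on eosinophils, averaged 15.0 CPM in mutant and 70.7 CPM in WT. CD177, a neutrophil surface protein held in specific granules, was nearly lost: 0.310, 0.747 and 0.795 CPM in mutant against 19.03, 19.8 and 8.24 CPM in WT, a log2 fold change of -4.62 ± 0.43 (SE). ARG1, the arginase of neutrophil granules, was at 2.71, 6.05 and 3.38 CPM in mutant against 56.9, 74.6 and 29.6 CPM in WT, though it overlaps MED23. CHI3L1, a secreted chitinase-like protein on 1q, was at 33.9, 46.9 and 47.8 CPM in mutant against 263, 368 and 255 CPM in WT, a log2 fold change of -2.78 ± 0.19 (SE), well past the median of its arm.

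Members of the same lists did not all move. Among azurophil genes, AZU1 averaged 31.3 CPM in mutant and 278 CPM in WT and PRTN3 251 CPM in mutant and 726 CPM in WT, both of the serine protease family, and both fell. AZU1 was uneven, at 9.92, 15.8 and 118 TPM in mutant libraries 1, 2 and 3 against 275, 488 and 576 TPM in WT libraries. MPO, the myeloperoxidase of these granules, averaged 3180 CPM in mutant and 5475 CPM in WT and did not pass the test, nor did LYZ, lysozyme, at 547 CPM in mutant and 712 CPM in WT. Of the specific granule list, LCN2 rose, at 1.79 CPM in mutant and 0.919 CPM in WT, and CYBB and MMP9 did not pass. Of 7 NADPH oxidase genes, which build the phagocyte superoxide enzyme, 5 fell (median -0.72), among them NCF1 and CYBA, with log2 fold changes of -1.36 and -0.72. CYBB, the membrane subunit that carries the electrons, was at 374 CPM in mutant and 351 CPM in WT on average. Of 8 S100 genes 6 fell (median -1.25), but 7 of the 8 lie on 1q. S100P, the member outside 1q, was at 36.1, 44.3 and 26.6 CPM in mutant against 109, 122 and 81.5 CPM in WT. With each library left out in turn, the numbers that fell in these lists stayed within 1.5 times of those given.

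**Figure D3:**
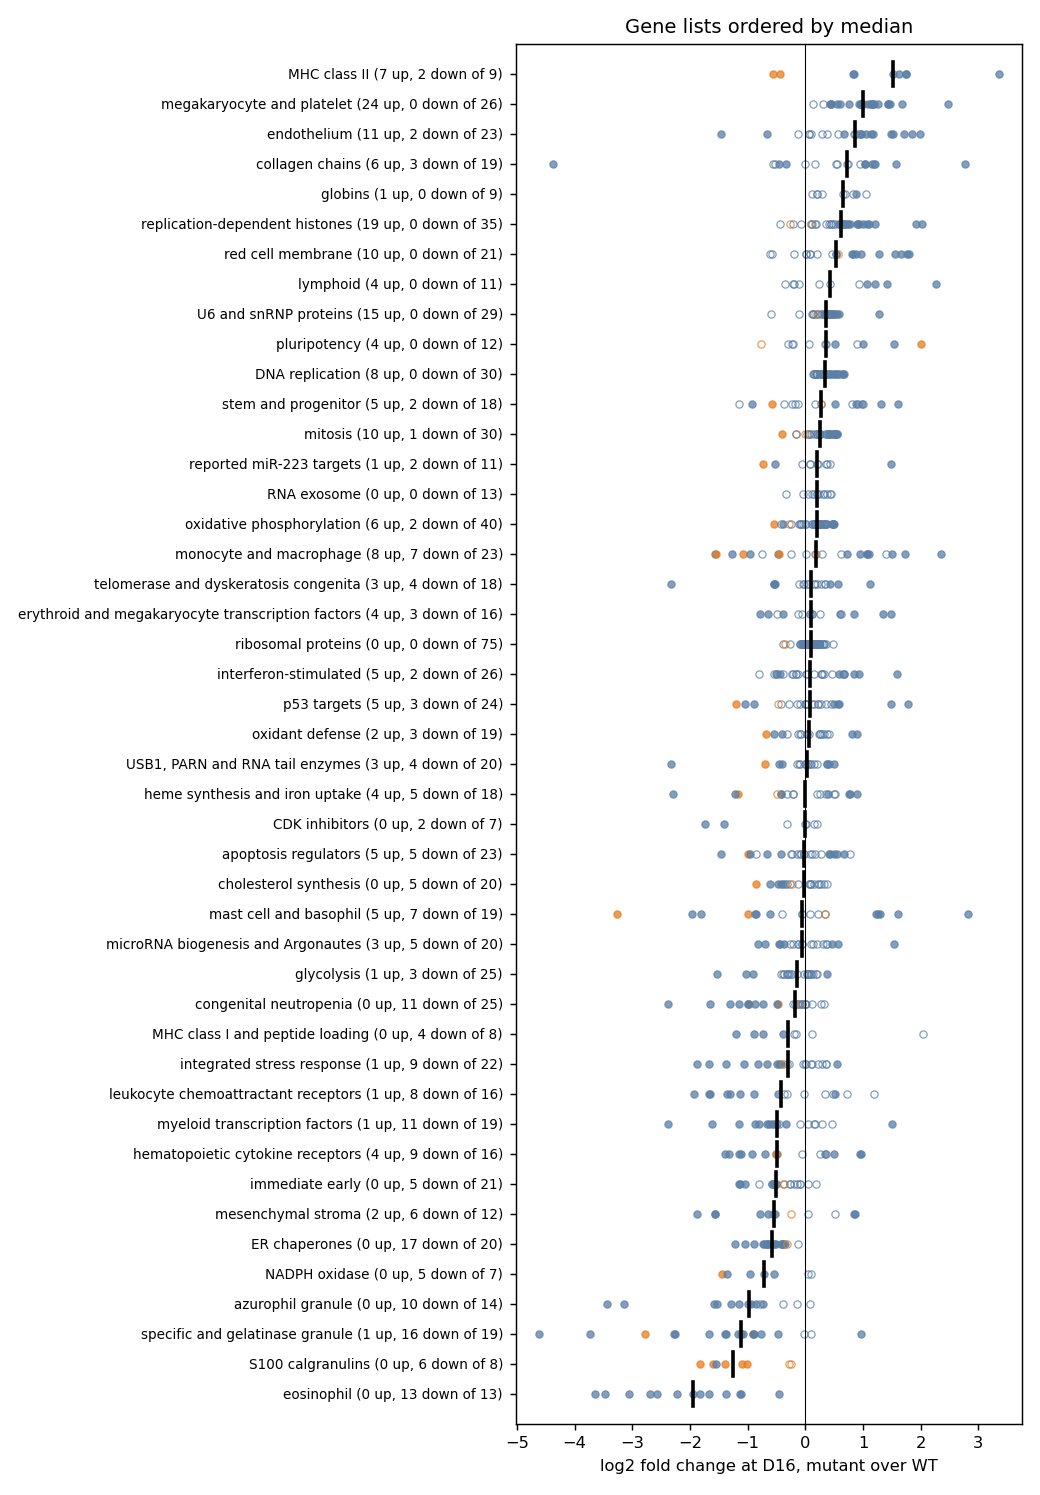
Log2 fold change of mutant over WT at D16 for each tested member of 45 gene lists, ordered by list median (black bar). Filled points were called, open points were not, and orange points lie on 1q. The eosinophil median is -1.96 and the MHC class II median 1.51.

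The regulators and receptors of the granulocyte line were lower as well. Of 19 myeloid transcription factors 11 fell and 1 rose (median -0.48). MYB, a factor of immature progenitors, was at 200, 203 and 187 CPM in mutant against 354, 366 and 310 CPM in WT, a log2 fold change of -0.81 ± 0.13 (SE). GFI1, a repressor needed for neutrophils, was at 101, 94.7 and 84.4 CPM in mutant against 199, 179 and 136 CPM in WT. The 2 groups did not overlap for either gene. SPI1 (PU.1), RUNX1 and CEBPA changed less, by -0.58, -0.62 and -0.54 on the log2 scale, and the CEBPA call was lost without WT library 1 (adjusted p = 0.110) and without mutant library 3 (adjusted p = 0.108). RUNX2, a relative of RUNX1, was at 9.60, 7.70 and 3.91 CPM in mutant against 30.9, 22.8 and 11.9 CPM in WT. IRF8, a factor of monocytes and dendritic cells, was the riser, at 83.4 CPM in mutant and 29.2 CPM in WT on average, a log2 fold change of 1.504.

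Of 16 hematopoietic cytokine receptors, 9 fell and 4 rose (median -0.49). CSF3R, the G-CSF receptor that drives neutrophil production, was at 99.03, 145 and 130 CPM in mutant against 233, 292 and 303 CPM in WT. CSF2RB, the beta chain shared by the receptors for IL-3, IL-5 and GM-CSF, was at 577, 563 and 540 CPM in mutant against 2025, 1395 and 994 CPM in WT, and the IL-3 receptor alpha chain IL3RA at 40.6, 49.5 and 37.6 CPM in mutant against 120, 118 and 82.0 CPM in WT. All 3 genes had every mutant library below every WT library, with log2 fold changes of -1.15, -1.39 and -1.32. Among the risers was CSF1R, the macrophage growth factor receptor (224 CPM in mutant and 116 CPM in WT), and the receptors that rose numbered 2 without WT library 1 and 2 without mutant library 1. Of 16 chemoattractant receptors, 8 fell and 1, FPR1, rose (median -0.42). CXCR4, which holds neutrophils in the marrow, was at 28.0, 32.1 and 42.4 CPM in mutant against 98.9, 118 and 106 CPM in WT (log2 fold change -1.66 ± 0.16, SE). Of 25 congenital neutropenia genes 11 fell (median -0.17), among them CSF3R, CXCR4, GFI1, ELANE and the 1q genes LYST and HAX1, while SBDS, WAS and GATA2 did not pass the test.

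Chaperones and disulfide isomerases of the endoplasmic reticulum, which fold secreted and granule proteins, fell together. Of 20 such genes 17 fell (median -0.57), and the count was 13 to 16 in leave-one-out fits. P4HB, a disulfide isomerase, was at 986, 1174 and 1010 CPM in mutant against 2663, 2537 and 2150 CPM in WT, a log2 fold change of -1.21 ± 0.15 (SE). CALR, the calcium-binding chaperone calreticulin, was at 1607, 1870 and 1860 CPM in mutant against 3092, 3076 and 3681 CPM in WT. XBP1, the transcription factor of the unfolded protein response, was at 236, 251 and 228 CPM in mutant against 365, 355 and 408 CPM in WT. In each the genotypes were apart in every library, and HYOU1, SEL1L and the 1q gene ATF6 were the members that did not pass. The eosinophil and neutrophil marker sums given above moved with these genes, and their part was not tested.

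Heme and iron genes went both ways. Of 18 genes, 5 fell and 4 rose (median 0.00), beside 15.3% lower and 13.1% higher over all genes. ALAS1, the first enzyme of heme synthesis outside red cells, was at 127, 175 and 122 CPM in mutant against 891, 752 and 437 CPM in WT, a log2 fold change of -2.29 ± 0.25 (SE, adjusted p = 3.42e-04). FTL, the ferritin light chain that stores iron, was at 2363, 2772 and 2640 CPM in mutant against 6743, 6389 and 5082 CPM in WT. HMOX1, which breaks heme down, was at 34.8, 42.5 and 45.7 CPM in mutant against 17.6, 22.2 and 25.6 CPM in WT, so the groups were apart in the other direction. ALAS2, the red cell form of the first enzyme, averaged 19.8 CPM in mutant and 13.8 CPM in WT and did not pass. Leaving out WT library 1, WT library 2 or mutant library 1 left 3 that fell, and 7 rose without WT library 3 and with the replicate block.

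Megakaryocyte genes were higher in mutant progenitors. Of 26 megakaryocyte and platelet genes, 24 rose (median 1.00), 21 to 24 in leave-one-out fits, and THBS1 and ITGA2B did not pass. MMRN1, a platelet alpha granule protein, was at 214, 179 and 175 CPM in mutant against 49.6, 69.5 and 90.1 CPM in WT, a log2 fold change of 1.44 ± 0.20 (SE). RAB27B, which moves platelet granules, was at 508, 381 and 461 CPM in mutant against 158, 207 and 195 CPM in WT, and CAVIN2 was at 124, 119 and 137 CPM in mutant against 39.9, 49.9 and 50.4 CPM in WT. For all 3 genes every mutant library was above every WT library. Of 21 red cell membrane genes 10 rose (median 0.53) and 5 were called in a fit over all 18 libraries. CD36 averaged 122 CPM in mutant and 49.8 CPM in WT, and ANK1 averaged 52.1 CPM in mutant and 28.3 CPM in WT. Of 9 globin genes only HBG2, a fetal globin, rose, at 550, 576 and 847 CPM in mutant against 238, 363 and 466 CPM in WT (median of the list 0.65). That share lies near the 13.1% called higher over all genes.

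Among 16 erythroid and megakaryocyte transcription factors, 4 rose and 3 fell (median 0.10), beside 13.1% higher and 15.3% lower over all genes. TAL1 was at 187, 210 and 222 CPM in mutant against 109, 110 and 125 CPM in WT, and KLF1, the red cell factor, at 15.5, 22.9 and 34.1 CPM in mutant against 5.75, 10.03 and 12.4 CPM in WT. GATA1 was at 92.9, 115 and 117 CPM in mutant against 124, 120 and 112 CPM in WT, which overlapped (adjusted p = 0.509), and GATA2 overlapped too. NFE2, FLI1 and IKZF2 were the members that fell. MEF2C rose, at 183, 150 and 194 CPM in mutant against 32.3, 65.7 and 89.3 CPM in WT, but the call was lost when transcript length entered the fit (adjusted p = 0.165 in edgeR and 0.312 in DESeq2).

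Of 18 stem and progenitor genes, 5 rose and 2 fell (median 0.27), beside 13.1% higher and 15.3% lower over all genes. KIT, the stem cell factor receptor of stem cells and mast cells, was at 293, 249 and 223 CPM in mutant against 49.4, 115 and 83.7 CPM in WT, a log2 fold change of 1.62 ± 0.25 (SE, adjusted p = 0.00183). MEIS1, a homeobox factor of stem cells, was at 90.5, 87.4 and 98.95 CPM in mutant against 35.3, 48.2 and 56.6 CPM in WT. MECOM, MLLT3 and ANGPT1 rose as well, while FLT3 averaged 13.3 CPM in mutant and 25.4 CPM in WT and fell. Without WT library 1, mutant library 1 or mutant library 2, 3 rose, and without WT library 3, 8 rose. FLT3 and the 1q gene PTPRC, the members that fell, both lost the call without WT library 2, mutant library 2 or mutant library 3, and 1 of them kept it without WT library 1.

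Mast cell and basophil genes went both ways, with 5 higher and 7 lower of 19 (median -0.05), beside 13.1% higher and 15.3% lower over all genes. The tryptases TPSAB1, TPSB2 and TPSD1 rose, by 1.29, 1.22 and 1.26 on the log2 scale, though these copies are near-identical and reads can be split among them. FCER1A, on 1q, LTC4S, the leukotriene synthase, and ENPP3 fell. LTC4S was at 38.1, 50.4 and 33.3 CPM in mutant against 166, 157 and 105 CPM in WT, with no overlap. CPA3, the mast cell carboxypeptidase, averaged 315 CPM in mutant and 247 CPM in WT and did not pass. Only 3 rose when WT library 1, mutant library 1 or mutant library 2 was left out.

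**Figure D4:**
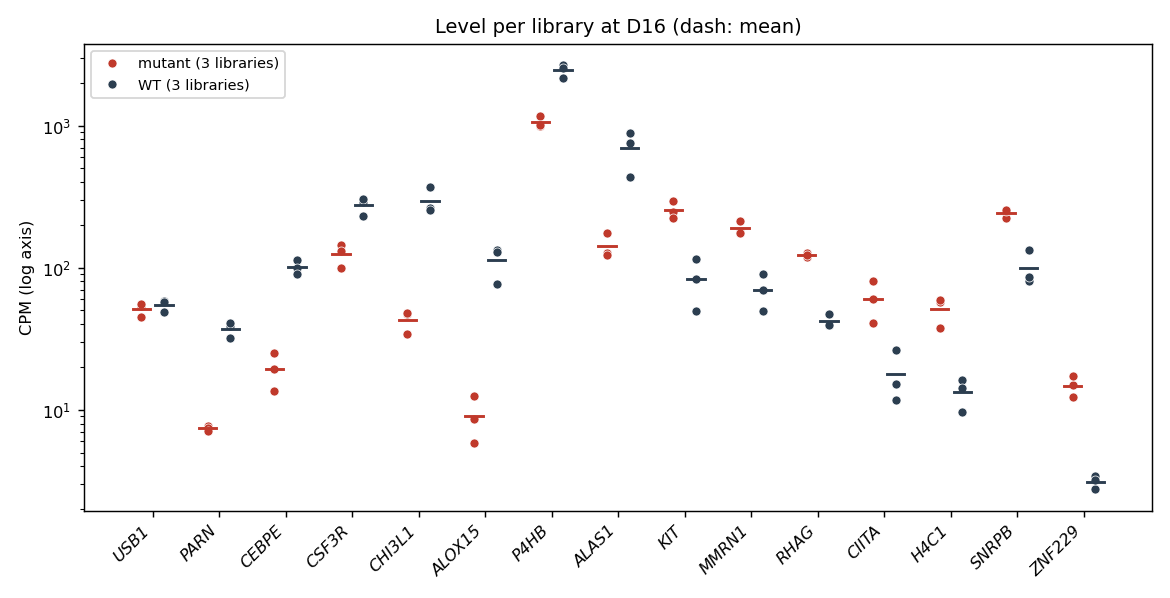
CPM per library on a log axis for 15 genes at D16, mutant (red, left) and WT (dark, right) with the mean as a dash, n = 3 each. PARN lies between 7.09 and 7.74 CPM in mutant and between 31.8 and 41.0 CPM in WT, while USB1 overlaps.

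MHC class II genes, which present peptides to T cells, were higher in mutant progenitors. Of 9 genes 7 rose and 2 fell (median 1.51), where the 7 outside 1q were those that rose (median 1.63) and the members on 1q, CTSS and RFX5, those that fell. CIITA, the master activator of class II genes, was at 40.8, 60.4 and 80.8 CPM in mutant against 11.7, 15.2 and 26.5 CPM in WT, a log2 fold change of 1.75 ± 0.30 (SE, adjusted p = 0.00298). CD74, the invariant chain, averaged 178 CPM in mutant and 99.1 CPM in WT. HLA-DPA1 was at 5.27, 7.70 and 23.6 CPM in mutant against 0, 0.306 and 2.98 CPM in WT, low counts whose call DESeq2 lost (adjusted p = 0.106). Fewer rose without WT library 2 (4), without mutant library 3 (2) and in the fit over all 18 libraries (3). HLA genes have many alleles and near-identical copies, so their counts are uncertain. Class I differed: of 8 genes of class I and peptide loading, 4 fell (median -0.29), and this count was 2 without WT library 1, WT library 2 or mutant library 2. B2M, the shared light chain, averaged 635 CPM in mutant and 731 CPM in WT and did not pass.

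Of 23 monocyte and macrophage genes, 8 rose and 7 fell (median 0.19), and of the 19 outside 1q 8 rose and 4 fell (median 0.61). The risers were complement and macrophage genes. C1QC was at 78.5, 84.7 and 135 CPM in mutant against 18.1, 26.8 and 44.3 CPM in WT, and C1QB at 31.7, 36.5 and 51.2 CPM in mutant against 1.56, 7.10 and 13.8 CPM in WT, where the WT libraries spread widely. MRC1, the mannose receptor, averaged 93.8 CPM in mutant and 44.2 CPM in WT, and C1QA, SIGLEC1, VSIG4, APOE and CSF1R rose too. FCN1, a monocyte lectin, was at 52.1, 64.4 and 88.7 CPM in mutant against 177, 218 and 212 CPM in WT, and CD68, TREM1 and CD4 fell with it outside 1q. CD14 averaged 16.8 CPM in mutant and 16.4 CPM in WT.

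Of 23 endothelial genes 11 rose and 2 fell (median 0.86). MMRN2, a matrix protein of vessels, was at 23.3, 23.5 and 17.2 CPM in mutant against 3.95, 5.75 and 6.11 CPM in WT, while KDR, PECAM1, FLT1 and LYVE1 did not pass. Without mutant library 1 or 3 only 1 fell. Of 19 collagen chains 6 rose and 3 fell (median 0.73), and the number that fell was 1 when any library but WT library 3 was left out. The basement membrane chains COL4A1 and COL4A2 rose, COL4A1 at 35.2, 38.4 and 40.4 CPM in mutant against 15.7, 17.2 and 17.9 CPM in WT, but these neighbours overlap. COL2A1, the cartilage collagen, was at 24.6, 39.8 and 19.8 CPM in mutant against 2.27, 3.85 and 5.82 CPM in WT. COL15A1, a basement membrane collagen, went the other way, at 0.619, 1.12 and 1.86 CPM in mutant against 37.2, 23.7 and 16.4 CPM in WT, a log2 fold change of -4.38 ± 0.39 (SE). Of 12 stromal genes 6 fell and 2 rose (median -0.54), such as LUM, a proteoglycan, at 24.1, 15.9 and 9.61 CPM in mutant against 57.8, 58.0 and 31.2 CPM in WT. Without mutant library 3, 3 fell, and 1 rose when any library but WT library 3 was left out. The defining stromal markers stayed low, with a summed level of 4.23 to 6.08 TPM in mutant and 2.33 to 3.67 TPM in WT.

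Replication-dependent histones, whose RNAs are made in S phase and carry no poly(A) tail, were higher in mutant progenitors. Of 35 such genes 19 rose (median 0.61), 10 without mutant library 1 and 11 without mutant library 2. H1-3 was at 276, 300 and 222 CPM in mutant against 110, 109 and 128 CPM in WT, and H4C1 at 57.1, 59.1 and 37.6 CPM in mutant against 9.58, 16.3 and 14.3 CPM in WT. H3C6, a histone gene outside that list, was at 255, 228 and 138 CPM in mutant against 7.54, 17.1 and 21.4 CPM in WT, a log2 fold change of 3.72 ± 0.34 (SE, adjusted p = 1.54e-04). It was the highest among protein-coding genes called over 2-fold with no overlap and a mean of at least 5 CPM. Histone copies are near-identical, so single members are uncertain. Other genes of the cell cycle moved less. Of 30 DNA replication genes 8 rose (median 0.34), and 18 rose with the replicate block. This count was 1 without WT library 1, 1 without WT library 2, 22 without WT library 3, 3 without mutant library 1 and 2 without mutant library 3. MCM2, a helicase subunit, was at 210, 196 and 256 CPM in mutant against 147, 120 and 183 CPM in WT. Of 30 mitosis genes 10 rose and 1, the 1q gene ASPM, fell (median 0.26). The number that rose was 18 without WT library 3, 2 without mutant library 1 and 4 without mutant library 3, and no mitosis gene was called higher without WT library 1 or WT library 2. MKI67, the proliferation marker, averaged 636 CPM in mutant and 714 CPM in WT and did not pass.

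PARN, the poly(A)-specific ribonuclease that trims oligo(A) tails from small RNAs and whose own loss causes dyskeratosis congenita, was the gene of RNA tail processing that moved most. PARN (chromosome 16, 14435700 to 14632728, GRCh38) was at 7.74, 7.40 and 7.09 CPM in mutant libraries against 31.8, 39.0 and 41.0 CPM in WT libraries. The mutant libraries were tight and far below WT, and the log2 fold change was -2.33 ± 0.16 (SE, adjusted p = 6.63e-05). The call was kept in 19 of 19 alternatives, at -2.44 to -2.17. On the other days the groups overlapped: PARN was at 13.5, 43.8 and 45.6 CPM in mutant against 40.4, 49.0 and 38.4 CPM in WT at D0, and at 21.7, 32.5 and 23.4 CPM in mutant against 27.1, 33.4 and 22.6 CPM in WT at D30. The average effective transcript length of PARN at D16 was 2059 to 2623 bases in mutant and 2411 to 2682 bases in WT.

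Around PARN, 3 of the 20 genes for USB1 and RNA tail enzymes rose and 4 fell (median 0.03), near the 13.1% and 15.3% over all genes. The other members that fell were ANGEL2 on 1q, XRN1 and TUT7, a terminal uridylyltransferase, and those that rose were TUT1, which adds the U tail of U6, PNPT1 and XRN2. TUT1 averaged 14.9 CPM in mutant and 10.6 CPM in WT. TENT4A and TENT4B, the noncanonical poly(A) polymerases also called PAPD7 and PAPD5, averaged 42.6 and 25.0 CPM in mutant and 42.2 and 23.6 CPM in WT, and DIS3L2, a cytoplasmic exonuclease, 21.3 CPM in mutant and 21.5 CPM in WT, and none of these passed. The number that rose was 1 without WT library 1 and 0 without WT library 2 or mutant library 2, and the number that fell was 2 without WT library 1, WT library 2, mutant library 2 or mutant library 3. Of 13 RNA exosome genes, which form the complex that degrades RNA from the 3′ end, edgeR called 0 (median 0.20), 4 had an unadjusted p under 0.05, and DESeq2 and limma-voom each called 0. EXOSC6 and EXOSC7 were called higher with the replicate block (adjusted p = 0.0636 and 0.0297). Of 18 telomerase and dyskeratosis congenita genes 3 rose and 4 fell (median 0.10), again near the shares over all genes. DKC1, the pseudouridine synthase that holds telomerase RNA, averaged 89.7 CPM in mutant and 66.7 CPM in WT, and TERT, the catalytic subunit, was at 3.56, 5.68 and 5.50 CPM in mutant against 1.32, 2.26 and 3.05 CPM in WT. The TERT call was lost with transcript lengths in edgeR (adjusted p = 0.124). The number that rose was 5 without WT library 3, 1 without mutant library 1 and 0 without any of the other libraries, and the number that fell was 1 without WT library 1 or 2, and 2 without mutant library 2 or 3.

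Protein partners of U6 and the small nuclear ribonucleoproteins rose where they moved. Of 29 genes 15 rose (median 0.36). The count was 6 without WT library 1, 3 without WT library 2, 6 without mutant library 1, 8 without mutant library 2, 8 without mutant library 3 and 9 with transcript lengths in the fit. SNRPB, which encodes the Sm proteins B and B′ of the spliceosomal core, was at 225, 250 and 255 CPM in mutant against 80.3, 86.2 and 133 CPM in WT, a log2 fold change of 1.28 ± 0.19 (SE, adjusted p = 0.00128). SNRPB (chromosome 20, 2461634 to 2470853) lies within the raised segment of chromosome 20, and the part of the segment in its change was not tested. LSM3, LSM4 and LSM8, members of the ring that holds the U6 tail, rose by 0.44, 0.51 and 0.40 on the log2 scale, while LSM2 averaged 9.49 CPM in mutant and 14.3 CPM in WT and did not pass. SSB (La) and LARP7, which bind new U-tailed RNAs, rose by 0.33 and 0.48. METTL16, the U6 methyltransferase, was at 49.2, 46.6 and 47.2 CPM in mutant against 31.6, 30.0 and 36.5 CPM in WT. Its call was lost with transcript lengths (adjusted p = 0.115). PRPF3, a tri-snRNP protein, rose although it lies on 1q (72.2, 75.5 and 71.2 CPM in mutant against 46.7, 48.6 and 57.5 CPM in WT).

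Of 20 genes for microRNA biogenesis and Argonautes, 3 rose and 5 fell (median -0.06), beside 13.1% higher and 15.3% lower over all genes. LIN28A, the RNA-binding protein that blocks let-7 maturation, was at 63.8, 59.0 and 31.2 CPM in mutant against 18.8, 20.002 and 14.4 CPM in WT, with no overlap. AGO4 was at 63.5, 63.4 and 56.8 CPM in mutant against 103, 115 and 79.7 CPM in WT, and TNRC6C, a partner of Argonautes, fell with it. DICER1, DROSHA and DGCR8, the processing enzymes, averaged 246, 76.1 and 37.9 CPM in mutant and 269, 70.9 and 33.2 CPM in WT and did not pass. The number that rose was 1 without WT library 1, WT library 2 or mutant library 3 and 6 without WT library 3 or with the replicate block, and the number that fell was 2 without WT library 1 or mutant library 2 and 3 without WT library 2 or mutant library 3. Of 11 reported targets of miR-223, a granulocyte microRNA, 1, MEF2C, rose and 2, IGF1R and the 1q gene NLRP3, fell (median 0.20). Those shares lie near the 13.1% and 15.3% over all genes. The number that fell was 0 without mutant library 1 and 1 without any other library but WT library 3.

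The largest changes lay in single genes. SLC27A3, a fatty acid transport protein on 1q (chromosome 1, 153774354 to 153780157), had 0 counts in all 3 mutant libraries, against 25.3, 15.1 and 9.52 CPM in WT libraries. The 592 WT counts make it at least 211-fold lower in mutant when the mutant group is set to a floor of 3 counts in all, a bound for counting error alone. SLC27A3 was also at 0 in all 6 libraries of D0, and at D30 it was at 35.1, 17.9 and 29.1 CPM in mutant against 96.7, 75.6 and 70.9 CPM in WT. B3GALT4, a galactosyltransferase on 6p, was at 0.0774, 0.0747 and 0.199 CPM in mutant against 14.2, 14.4 and 11.01 CPM in WT, a log2 fold change of -6.67 ± 0.37 (SE, adjusted p = 1.28e-05). Its effective transcript length was 502 to 528 bases in mutant and 1319 to 1429 bases in WT, and it overlaps WDR46 on the other strand. At D30 its level varied between libraries of both genotypes, at 10.98, 0.637 and 0.520 CPM in mutant against 0.482, 20.9 and 0.610 CPM in WT. PPP1R1B, a phosphatase inhibitor, was at 4.72, 8.97 and 6.16 CPM in mutant against 112, 92.9 and 54.7 CPM in WT, and SEMA4A, a semaphorin on 1q, at 27.7, 26.98 and 31.9 CPM in mutant against 182, 136 and 112 CPM in WT.

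Among protein-coding genes called over 2-fold with no overlap and a mean of at least 5 CPM, 3 of the 10 that rose most were zinc-finger genes of chromosome 19. ZNF229 was at 14.9, 17.2 and 12.3 CPM in mutant against 2.75, 3.43 and 3.20 CPM in WT, a log2 fold change of 2.23 ± 0.22 (SE). ZNF681 was at 19.4, 16.96 and 15.2 CPM in mutant against 2.39, 4.65 and 3.76 CPM in WT, and ZNF506 at 32.8, 32.4 and 24.2 CPM in mutant against 4.79, 8.99 and 6.32 CPM in WT. ZNF229 was called higher on the other days too, by 1.41 at D0 (adjusted p = 0.0177) and 3.14 at D30 (adjusted p = 1.74e-05) in the fit over all 18 libraries, and ZNF681 at D0 by 1.11 (adjusted p = 0.0471). UST, a sulfotransferase, was at 9.60, 11.1 and 12.8 CPM in mutant against 1.08, 1.71 and 4.403 CPM in WT, and AFAP1L1, an actin-associated protein, at 11.7, 10.4 and 11.4 CPM in mutant against 2.15, 2.39 and 3.62 CPM in WT.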

How the data were processed

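Total RNA was depleted of rRNA and made into strand-specific paired-end libraries by the authors, who trimmed reads with Trimmomatic 0.36, quantified them with Salmon 0.13.1 against the Ensembl GRCh38 v99 cDNA set and tested genes with DESeq2. The authors deposited, per gene and library, an expected count (Salmon's estimate), TPM scaled to a fixed sum, and the average effective transcript length in bases (other values). Use of strand in the quantification is not given in the sources used here, so overlapping and antisense genes, and near-identical copies, are uncertain. Of the 35168 gene identifiers, 35051 matched GENCODE v44 symbols and GRCh38 positions, and 117 did not. They held 0.24 to 0.31% of D16 counts and stayed in library sizes and tests. The number of per-sample columns that belonged to no listed sample was 0.

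Expected counts were rounded and tested with edgeR 4.0.16 in R 4.3.3 (filterByExpr, TMM, glmQLFit and glmQLFTest, genotype as the only term) on the 6 D16 libraries. The p-values were adjusted over all genes by Benjamini-Hochberg, and a gene was called under 0.1, as in the study's own analysis, with changes over 2-fold counted apart. CPM used TMM-scaled library sizes, and TPM served for levels and marker sums. The SE of a log2 fold change was its size divided by the square root of F. Common biological variation was 0.170 as a coefficient. A fit over all 18 libraries gave the genotype effect at D16 minus that at D30 and the effects on the other days. D16 depth was 9043538 to 17536723 counts, and totals over the series ran from 4125102 to 19368903. Replicate pairs differed by more than sampling noise (chi-square per degree of freedom 12.0 to 35.9). Same-numbered mutant and WT libraries deviated together (correlations 0.126, 0.235 and 0.394, each the highest for its number), so a fit with the replicate number as a block was set beside the results it changed. The pairing comes from the titles, which do not say what a number marks.

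The genes, the 45 lists (988 entries, 946 different genes) and the tests were chosen with earlier results of these data known, so a list's direction is a description and not independent evidence. Named genes were USB1, the 10 highest and 10 lowest protein-coding genes among calls over 2-fold whose genotypes did not overlap and whose mean reached 5 CPM, up to 4 called members per list by p (up to 2 where none was called), 10 regulators and surface markers, the most abundant gene of each genotype, 3 genes on 1q by p and the marker genes. Other members named as examples, IRF8, LCN2, CYBB and TUT1 among them, were chosen after their values were seen. Promoters came from RefSeq. Alternatives were RLE scaling, scaling without globins and the 20 most abundant genes, 1q left out, no count filter, DESeq2 1.42.0, limma-voom 3.58.1, a minimum of 5 CPM in 3 libraries, transcript lengths as offsets, the fit over all 18 libraries, a threshold of 0.05, the replicate block and each library left out. Leaving out 1q together with the first 10 Mb of chromosome 20 was added after seeing the data. The test was tested on simulated counts. The miRNA data of the study were not analysed here. Some genes are counted in their lists but not reported by name here.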

Additional observations from a re-analysis of the deposited data

Results flagged for a closer look

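The genotype effect at D16 differed from that at D30 for 18 of the named genes for which the difference was read out. The test was of the difference itself (edgeR's quasi-likelihood test over all 18 libraries, Benjamini-Hochberg adjusted p under 0.1). It was read out for USB1, PARN, SEMA4A, SNRPB, CHI3L1 and the protein-coding genes named for the size of their D16 effect. The plan had it only for the extremes of the genes named for size, and the rest went beyond the plan. For the other named genes it was not read out, so their days are not compared here. Over all genes, 3447 of 16829 passed this test (20.5%), 1714 in the positive and 1733 in the negative direction, with 1912, 1218 and 2627 without replicate 1, 2 or 3 of every group. All 18 were named for their D16 results, so the 2 days were not chosen alike. PARN, SEMA4A and SNRPB were named for a small p at D16, and the others for the size of their D16 effect. The value given is the log2 effect at D16 minus that at D30.

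The granulocyte genes CD177, ARG1, ALOX15, PRG3 and BPI had values of -5.82, -3.51, -3.58, -2.71 and -1.96 (adjusted p = 0.0679, 6.75e-04, 7.59e-04, 0.0253 and 0.0127). COL15A1 had -3.18 (adjusted p = 9.23e-04). SLC27A3 had -9.05 (adjusted p = 3.92e-04), a size that depends on its 0 counts, B3GALT4 had -5.79 (adjusted p = 0.0379), SEMA4A -1.65 (adjusted p = 0.00677) and PARN -2.20 (adjusted p = 0.00347). The CD177 call was lost without replicate 1 or 2 and the B3GALT4 call without replicate 1 or 3. Alternative fits of the difference were read out only for SLC27A3, B3GALT4, CD177, COL15A1, H3C6, C1QB, COL2A1 and HLA-DPA1. Whether the calls of the other genes hold in such fits was not checked. The size for CD177 also depends on D30 counts of 1, 0 and 1 in mutant and 0, 0 and 1 in WT libraries. CD177 was not confined to D16, averaging 19.6 CPM in mutant and 30.4 CPM in WT at D0.

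Above 0 were the histones H3C6 at 3.00 (adjusted p = 2.91e-04) and H3C1 at 1.80 (adjusted p = 0.0105), the complement gene C1QB at 3.24 (adjusted p = 0.00131), UST at 2.74 (adjusted p = 0.0038) and AFAP1L1 at 2.16 (adjusted p = 1.07e-04). The zinc-finger genes ZNF681 and ZNF506 had 1.71 and 1.22 (adjusted p = 0.00666 and 0.00871), and SNRPB had 0.92 (adjusted p = 0.0142). PPP1R1B did not pass, with an effect of -3.66 at D16 and -3.69 at D30 in the same fit. Neither did CHI3L1, with -2.75 at D16 and -2.20 at D30. USB1, FCER1A, ZNF229, COL2A1 and HLA-DPA1 did not pass either (adjusted p = 0.585, 0.253, 0.2405, 0.118 and 0.150).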

How the results depend on the processing

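The count of genes called ran from 2450 to 5778 when each library was left out, and outside 1q from 2152 to 5373. Genes called over 2-fold numbered 1056 to 1829 with a library left out and 772 where at least 5 CPM in 3 libraries was required. The D16 minus D30 count ran from 1218 to 2627 without a replicate. The 1q share of counts stayed 1.73 to 1.88 percentage points lower in mutant. RLE scaling, DESeq2, limma-voom and edgeR with transcript lengths called 4121, 4003, 4134 and 3080 genes, and a threshold of 0.05 called 2872. The fit over all 18 libraries called 2259 higher and 1990 lower, against 1909 and 2226 in the D16 fit, so the balance of directions depends on that choice. With the replicate block 5407 genes were called, 4134 of them shared with the 4135 of the fit without it, and among named genes RPLP1, RPS29, EXOSC6 and EXOSC7 became called (adjusted p = 0.0323, 0.0352, 0.0636 and 0.0297) and no other call changed. Over named genes and alternatives, 3218 values kept direction and call, 163 lost the call, 21 gained it and 1 changed sign: GATA2, which ran from -0.23 without WT replicate 3 to 0.13 without WT replicate 1 and was never called. Of the list counts of genes called higher or lower, 1401 were equal to or within 1.5 times of the main count and 309 moved. List medians were not compared in this way. With 3 libraries a genotype and a spread of 0.170, small changes pass or fail with single libraries, and genes under about 5 CPM rest on few counts. The causes of these shifts were not tested.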

Other observations

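The lists here stand beside 13.1% called higher and 15.3% called lower over all genes. Of 24 p53 targets 5 rose and 3 fell (median 0.07), and CDKN1A (p21) averaged 132 CPM in mutant and 133 CPM in WT. TIGAR was at 7.36, 7.32 and 8.09 CPM in mutant against 2.15, 2.26 and 3.62 CPM in WT, with no overlap. The number of p53 targets that fell was 5 without WT library 3. Of 7 CDK inhibitors 2 fell (median -0.01), CDKN2A and CDKN2B, which are neighbours and share an overlapping antisense gene. Of 23 apoptosis regulators 5 rose and 5 fell (median -0.03). Those that fell were the survival genes BCL2, BCL2A1 and CFLAR, the 1q gene MCL1 (625, 660 and 825 CPM in mutant against 1467, 1362 and 1391 CPM in WT), and BIK, a promoter of cell death. The number that fell was 3 without WT library 1 or mutant library 1, and the number that rose was 1 without WT library 1 or mutant library 2, 3 without WT library 2 and 2 without mutant library 3. Of 22 genes of the integrated stress response 9 fell and 1 rose (median -0.30), and 5 fell without WT library 1. SLC7A11, the cystine transporter, was at 74.6, 54.9 and 50.8 CPM in mutant against 144, 117 and 114 CPM in WT, while ATF4 averaged 343 CPM in mutant and 425 CPM in WT and did not pass. Of 21 immediate early genes 5 fell (median -0.50), 11 with the replicate block, 3 without mutant library 1 or 2, 12 without mutant library 3 and 2 in the fit over all 18 libraries. KLF2 was at 20.7, 36.0 and 31.6 CPM in mutant against 72.7, 74.1 and 48.4 CPM in WT. Of 26 interferon-stimulated genes 5 rose and 2 fell (median 0.09), and ISG15, MX1 and IFIT1 did not pass. The number that rose was 1 without WT library 1 or 2, 2 without mutant library 1 or 2 and 3 without mutant library 3, and the number that fell was 1 without WT library 2, 4 without WT library 3 and 5 with the replicate block.

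Of 75 ribosomal protein genes edgeR called 0 (median 0.09), with 1 at an unadjusted p under 0.05, 2 called by DESeq2 and 1 by limma-voom. With the replicate block RPLP1 fell (adjusted p = 0.0323) and RPS29 rose (adjusted p = 0.0352). For the lists that follow, the shares over all genes were 13.1% called higher and 15.3% called lower. Of 40 oxidative phosphorylation genes 6 rose and 2 fell (median 0.19), and the number that rose was 1 without WT library 1, 0 without WT library 2, 17 without WT library 3 and 2 without mutant library 1. The number that fell was 1 without WT library 2 or any mutant library and 4 with the replicate block. Of 25 glycolysis genes 3 fell, GPI, VEGFA and ADM, and 1, PFKM, rose (median -0.14). The PFKM call was lost in 10 of its 19 alternatives, DESeq2 among them (adjusted p = 0.120), and the ADM call without WT library 2 or mutant library 1 (adjusted p = 0.122 and 0.107). In this list 9 fell without WT library 3 and 8 with the replicate block. GPI was at 409, 524 and 407 CPM in mutant against 1005, 996 and 728 CPM in WT. Of 20 cholesterol synthesis genes 5 fell (median -0.03), 2 without WT library 2 or mutant library 1 and 3 without mutant library 2 or 3. Of 19 oxidant defence genes 2 rose and 3 fell (median 0.07), with 5 risers without WT library 3 and with the replicate block. CAT, catalase, was at 155, 146 and 144 CPM in mutant against 82.9, 89.8 and 82.3 CPM in WT. Of 12 pluripotency genes 4 rose, LIN28A, LEFTY1 (on 1q), DNMT3B and SALL4 (median 0.35), while POU5F1 (OCT4) averaged 4.75 CPM in mutant and 4.51 CPM in WT. The SALL4 call was kept in 13 of 19 alternatives and lost, among others, with transcript lengths in edgeR (adjusted p = 0.421). Of 11 lymphoid genes 4 rose, CD3D, CD79B, PRF1 and CD7, all at under 12 CPM (median 0.43). The CD7 call was kept in 14 of 18 alternatives and the PRF1 call in 17 of 18. RNA5-8SP6, an rRNA pseudogene, was the most abundant gene by TPM in mutant libraries, at 30678 ± 4410 TPM in mutant and 16113 ± 5996 TPM in WT (SD, n = 3 each).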
